A study of Homo sapiens with 15 samples.

Results

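The 10 genes described here are PHGDH, PSAT1, PSPH, SHMT2, MTHFD2, ASNS, TRIB3, CHAC1, DDIT3 and SESN2, which belong to the serine synthesis pathway and to the transcriptional output of the stress-responsive factor ATF4. They were taken as a gene list that was chosen with earlier results of these data known. Matching the Ensembl identifiers of the count table to gene symbols gave 10 of 60671 genes. Poly(A)-enriched RNA was sequenced from the human colorectal cancer cell line HT115 in 15 libraries that form 5 groups of 3. All cells received 0.5 µg/ml doxycycline for 24 h, controls included, and each group differed in the protein that doxycycline switched on. That protein was the SOX9 mutant M228, the truncated SOX9 M303, the SOX9 mutant M379, V5-tagged wild-type SOX9 (SOX9_WT) or green fluorescent protein (GFP, the control). The sources used here do not say what the names M228 and M379 stand for, or whether each line was a single clone. The series description mentions 6 experiments in duplicate, whereas the sample labels, followed here, give 5 groups in triplicate.

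Serine is made from a glycolytic intermediate by 3 enzymes in a row, PHGDH, PSAT1 and PSPH, and SHMT2 and MTHFD2 then pass its carbon to folate in mitochondria. When amino acids run short or proteins misfold, kinases phosphorylate the initiation factor eIF2, bulk translation drops, and translation of ATF4 mRNA rises. ATF4 pairs with C/EBP proteins on composite promoter sites and switches on genes for serine and asparagine synthesis together with stress effectors such as TRIB3, CHAC1, DDIT3 and SESN2.

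The composite site was searched as TGATGNAA on both strands in RefSeq promoter windows of 300 bases (250 bases before to 50 after the gene start, build GRCh38.p14). Promoters of 8 members were in the table, and PSPH and SHMT2 had no entry. The letters occurred in 2 of the 8, ASNS and CHAC1, against 4.46% of all 27305 genes with a promoter and 4 of 20 further ATF4 target genes with a promoter. The 2 stretches are shown because they carry the sequence through which ATF4 is known to act on this gene class, with the match in capitals. The ASNS stretch lies on the minus strand at chr7:97872458-97872487, 79 to 50 bases before the RefSeq start, and the CHAC1 stretch lies on the plus strand at chr15:40953251-40953280, 220 to 191 bases before it. In CHAC1 the capitals read as the site on the opposite strand. Both stretches fall in the untranslated part of a first exon of some annotated transcripts.
ASNS: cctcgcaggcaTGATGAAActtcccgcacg
CHAC1: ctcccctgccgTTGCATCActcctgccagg
The core SOX motif AACAAT was found in 1 of the 8 promoters, that of ASNS, and in those of 12.2% of all genes with one.

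Library totals ranged from 3054755 to 31704249 counted reads, so 3 reads, the limit that a count of 0 allows, stood for 0.982 CPM in the shallowest library and 0.0946 CPM in the deepest (CPM, read counts scaled to a common library size with TMM factors). These limits cover counting error only. SOX9 itself averaged 2105 ± 250 CPM in M228, 3009 ± 51.6 CPM in M303, 2215 ± 158 CPM in M379, 213 ± 28.6 CPM in SOX9_WT and 119 ± 33.9 CPM in GFP (SD, n = 3 each). The mutants were called above GFP, and SOX9_WT was not (log2 fold change 0.84, edgeR adjusted p = 0.110, called without GFP replicate 3), so each comparison of a mutant with SOX9_WT is also one of unequal SOX9 RNA. The epithelial markers EPCAM, KRT8 and VIL1 were expressed in every library, with EPCAM at 848 to 1117 CPM, while the T cell gene CD3E and the endothelial gene CDH5 had no read and the pan-leukocyte gene PTPRC stayed at or under 0.0671 CPM. LYZ, the lysozyme gene, was on the leukocyte list and is also made by Paneth cells of the gut. It carried nearly all of that list's summed level, which was 636 to 1013 CPM in M228, 809 to 1555 in M303, 1021 to 1440 in M379, 2568 to 3544 in SOX9_WT and 1404 to 2430 in GFP. LYZ was called lower in M228 and M303 than in SOX9_WT (log2 fold change -1.85 and -1.44, edgeR adjusted p = 0.00470 and 0.0296), and its value of -1.34 in M379 was not called (edgeR adjusted p = 0.0936). An opposite-strand gene shares 34.7% of its exon bases. Its part in the results below was not tested. GFP replicate 2 stood apart, with 6.61% of reads from ribosomal protein genes (3.42% to 4.52% elsewhere), and GFP had a median dispersion of 0.0975, where the remaining groups had 0.0104 to 0.0232. Whether replicates were grown as separate cultures is not stated in any label, so the spread behind the p-values may be technical. In such bulk samples, fewer cells with a transcript and less of it per cell cannot be told apart.

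Scaled for summed exon length, the members spanned a wide range of levels. The median over 15 libraries was 197 TPM (read counts scaled for gene length and library size) for SHMT2, 165 TPM for PSAT1, 69.6 TPM for MTHFD2, 61.4 TPM for PSPH, 49.5 TPM for TRIB3 and 30.2 TPM for DDIT3. CHAC1 had a median of 7.93 TPM, SESN2 of 4.13 TPM and PHGDH of 2.74 TPM. PHGDH, which encodes the first enzyme of the pathway, was therefore below the next 2 enzymes, PSAT1 and PSPH, in these cells. Its summed exon length of 9187 bases, against 2206 for PSAT1 and 2762 for PSPH, widens that gap in TPM. In CPM the medians were 7.91 for PHGDH, 118 for PSAT1 and 52.1 for PSPH. ASNS, which encodes asparagine synthetase, had a median of 0.407 TPM and stayed under 1 CPM in 13 of 15 libraries. An overlapping gene, described below, limits what that value says about its level. All 10 members passed the expression filter and were among the 16160 genes tested.

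PHGDH was the member whose level differed most between groups. In CPM by replicate, the M228 libraries held 7.37, 7.77 and 7.40, the M303 libraries 14.8, 8.97 and 8.49, the M379 libraries 9.06, 8.19 and 7.91, the SOX9_WT libraries 4.52, 3.32 and 4.59, and the GFP libraries 7.60, 12.9 and 8.08. Every SOX9_WT library lay below all 12 others. The order of the means, low to high, was SOX9_WT, M228, M379, GFP and M303. The last 4 overlapped in part: M228 lay wholly below M303 and M379, and GFP overlapped each of the mutants. PHGDH (ENSG00000092621, GRCh38 chromosome 1, 119648411 to 119744218, plus strand) rested on 25 to 497 reads per library.

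**Figure D1:**
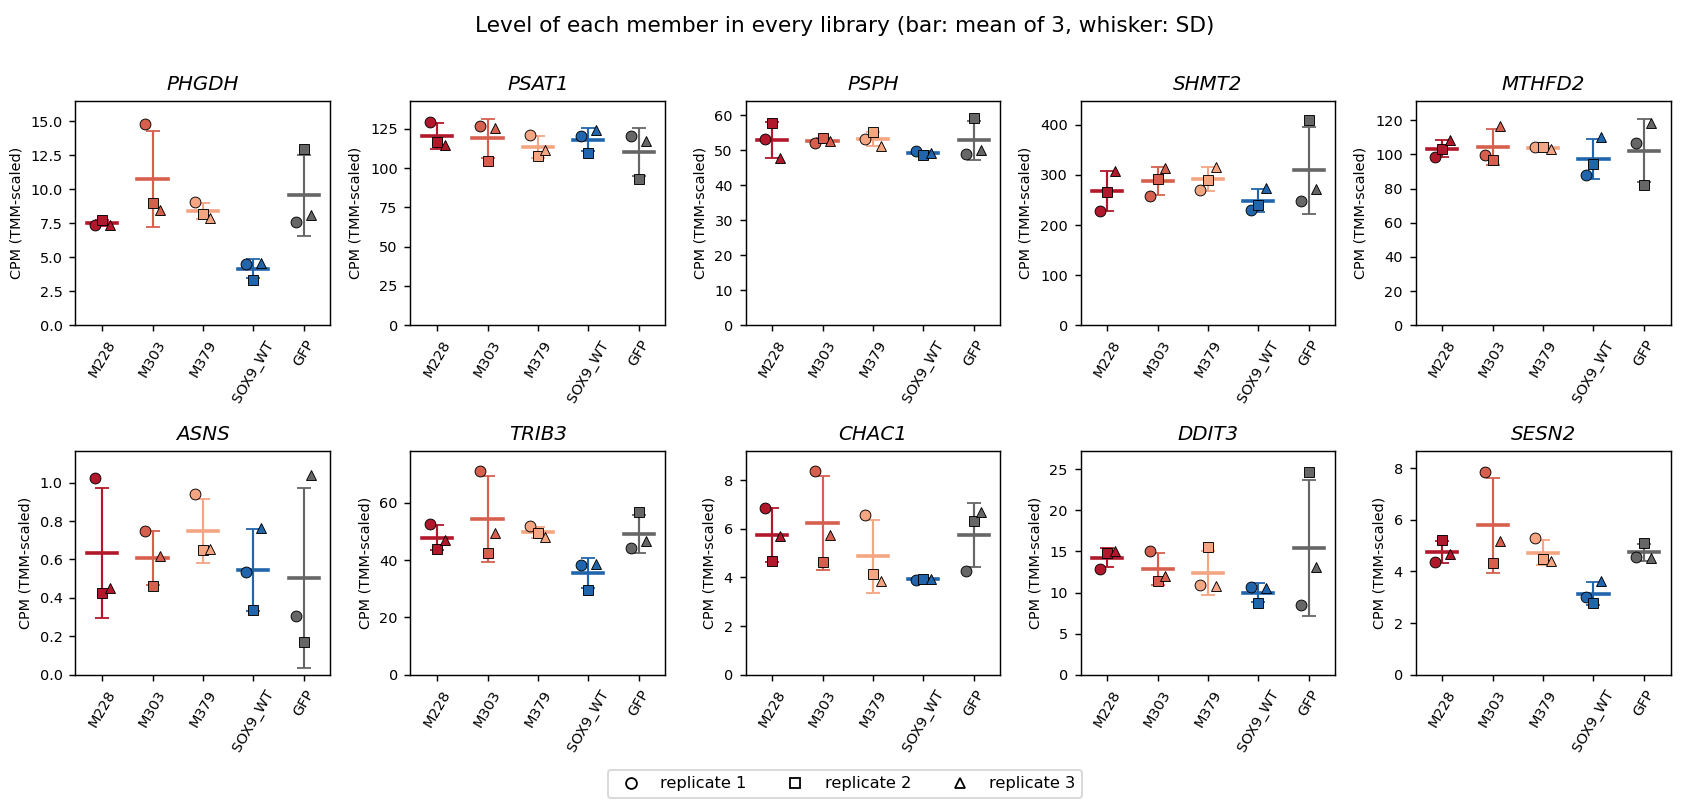
Level of each of the 10 genes in CPM (vertical axis, from 0) in all 15 libraries, by group, with a bar for the mean and a whisker for the SD of 3 libraries and a symbol shape for the replicate number. The SOX9_WT libraries of PHGDH sit at 3.32 to 4.59 CPM, below the lowest library of any other group at 7.37 CPM.

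Each mutant was compared with SOX9_WT, where the mutation and the unequal SOX9 RNA given above cannot be told apart. All of these comparisons share the same 3 SOX9_WT libraries, so their values are given side by side and are not independent. PHGDH was higher in M303 than in SOX9_WT, at 10.8 ± 3.53 CPM against 4.14 ± 0.71 CPM (SD, n = 3 each). The log2 fold change was 1.38 ± 0.24 (SE), and it passed the test (edgeR adjusted p = 0.0230), as 1 of 10 members in a comparison that called 0.384% of all genes and 0.21% as higher. In M379 PHGDH averaged 8.38 ± 0.602 CPM, a log2 fold change of 1.02 ± 0.25 over SOX9_WT that was not called (edgeR adjusted p = 0.216). It became a call, at 1.01, when GFP replicate 2, which enters through the shared spread, was left out (edgeR adjusted p = 0.0481). In M228 it averaged 7.51 ± 0.221 CPM, with a log2 fold change of 0.86 ± 0.25 that was not called either (edgeR adjusted p = 0.213). No member was called in M379 or in M228, where 0.124% and 0.569% of all genes were called by edgeR. At an unadjusted p under 0.05, edgeR gave 4 members in M228, 4 in M303 and 3 in M379, beside 6.65%, 6.31% and 4.7% of all genes. DESeq2 called 0 members in M228, 2 in M303 and 1 in M379, beside 1.4%, 1.05% and 0.439% of all genes.

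Set against SOX9_WT as 1 mean, the 3 mutants also held more PHGDH, by 1.08 ± 0.21 on the log2 scale (edgeR adjusted p = 0.0222). PHGDH was again the 1 member called, beside 0.941% of all genes in either direction and 0.347% as higher. Both PHGDH calls rested on few libraries. Without M303 replicate 1, the library with the most PHGDH, the M303 value was 1.08 and was no longer called (edgeR adjusted p = 0.0676), while the mean over the mutants was 0.98 and stayed called (edgeR adjusted p = 0.0152). Leaving out SOX9_WT replicate 1, 2 or 3 ended both calls, with M303 values of 1.46, 1.24 and 1.45 (edgeR adjusted p = 0.109, 0.161 and 0.0656).

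**Figure D2:**
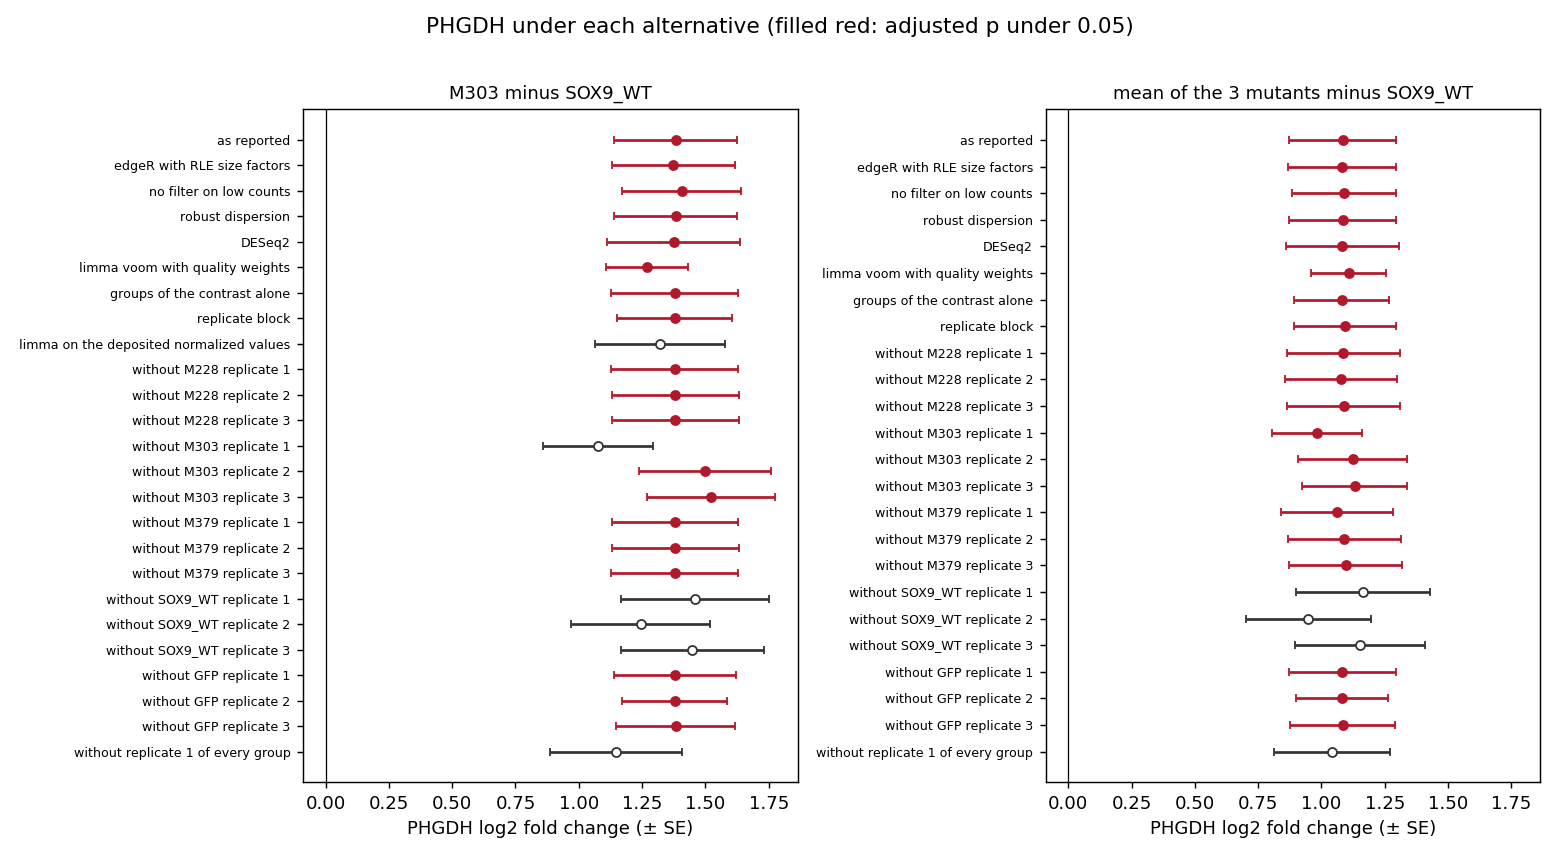
PHGDH log2 fold change over SOX9_WT with its SE (horizontal axis) for M303 on the left and for the mean of the 3 mutants on the right, under the reported setting (top) and each alternative. Every estimate lies above 0, between 1.08 and 1.52 for M303, and filled red points mark those with an adjusted p under 0.05.

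The other enzymes of serine synthesis had no called change in any comparison. PSAT1, the aminotransferase of the second step (chromosome 9, 78297125 to 78330093, plus strand), averaged 120 ± 8.04 CPM in M228, 119 ± 12.4 in M303, 113 ± 6.80 in M379, 118 ± 7.48 in SOX9_WT and 110 ± 15.0 in GFP. Its log2 fold changes over SOX9_WT were 0.03 in M228, 0.01 in M303 and -0.06 in M379, each smaller than its SE of 0.13. PSPH, the phosphatase of the last step (chromosome 7, 56011051 to 56051604, minus strand), ranged from 47.7 to 59.3 CPM over all libraries and was the least variable member. The SOX9_WT libraries of PSPH, at 49.7, 48.8 and 49.3 CPM, were below all M303 libraries (52.1, 53.4 and 52.6) and all M379 libraries (53.3, 55.3 and 51.1). That separation was small, with log2 fold changes of 0.10 ± 0.11 and 0.11 ± 0.11 that were not called (edgeR adjusted p = 1.000 and 0.979). Pseudogene copies of PSAT1, PSPH and MTHFD2 exist in the genome, and how reads shared with them were counted was not tested.

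SHMT2 and MTHFD2, the mitochondrial enzymes that move carbon from serine onto folate, did not separate the groups. SHMT2 (chromosome 12, 57229573 to 57234935, plus strand) held 228.3, 266 and 308 CPM in M228, 258, 291 and 314 in M303, 269, 289 and 317 in M379, 230, 240 and 274 in SOX9_WT and 248, 409 and 272 in GFP. Its highest library was GFP replicate 2, and the mutant and SOX9_WT ranges overlapped. The log2 fold changes over SOX9_WT were 0.11 ± 0.17 in M228, 0.21 ± 0.17 in M303 and 0.23 ± 0.17 in M379. MTHFD2 (chromosome 2, 74198610 to 74217565, plus strand) averaged 103 ± 5.03 CPM in M228, 104 ± 10.6 in M303, 104 ± 0.648 in M379, 97.4 ± 11.6 in SOX9_WT and 102 ± 18.6 in GFP. No difference of SHMT2 or MTHFD2 between groups was called. MTHFD2 shares 33.6% of exon bases, and SHMT2 8.38%, with opposite-strand genes. The authors' counting did not use strand, so reads over those bases could not be assigned to either gene alone.

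ASNS (chromosome 7, 97851677 to 97872542, minus strand) was at the edge of detection, with 1 to 25 reads per library. It held 1.03, 0.424 and 0.452 CPM in M228, 0.746, 0.462 and 0.617 in M303, 0.940, 0.650 and 0.654 in M379, 0.535, 0.339 and 0.764 in SOX9_WT and 0.304, 0.170 and 1.04 in GFP. The groups overlapped throughout, and a difference was not detectable at these read counts. In addition, 49.3% of its exon bases belong to an overlapping gene on the same strand, ENSG00000284707, so reads over them could not be assigned to ASNS alone. Whether this lowered the ASNS count was not tested, so the low count need not be its true level.

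The stress effectors TRIB3, SESN2, CHAC1 and DDIT3 resembled PHGDH in having their lowest mean in SOX9_WT, by smaller amounts. TRIB3, a pseudokinase gene switched on by ATF4 (chromosome 20, 362835 to 397559, plus strand), held 52.6, 43.8 and 47.2 CPM in M228, 71.0, 42.4 and 49.5 in M303, 51.8, 49.4 and 47.9 in M379, 38.2, 29.7 and 38.8 in SOX9_WT and 44.1, 56.6 and 46.8 in GFP. All 3 SOX9_WT libraries were below the other 12. The log2 fold changes over SOX9_WT were 0.43 ± 0.18 in M228, 0.61 ± 0.18 in M303 and 0.48 ± 0.18 in M379, none of them called (edgeR adjusted p = 0.587, 0.235 and 0.737).

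SESN2, which encodes sestrin 2, a leucine-binding restraint on mTORC1 (chromosome 1, 28259518 to 28282491, plus strand), held 4.36, 5.23 and 4.69 CPM in M228, 7.85, 4.31 and 5.17 in M303, 5.30, 4.48 and 4.40 in M379, 3.02, 2.78 and 3.63 in SOX9_WT and 4.56, 5.11 and 4.53 in GFP. Here too SOX9_WT lay wholly below every other group. The difference of M303 from SOX9_WT was 0.89 ± 0.22 on the log2 scale and was not called (edgeR adjusted p = 0.111). With the replicate number as a block, it was 0.89 and called (edgeR adjusted p = 0.0435), which made 2 members called in M303. The values in M228 and M379 were 0.60 ± 0.23 and 0.60 ± 0.23 (edgeR adjusted p = 0.494 and 0.792).

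CHAC1, whose product degrades glutathione (chromosome 15, 40952962 to 40956512, plus strand), held 6.86, 4.66 and 5.71 CPM in M228, 8.36, 4.62 and 5.74 in M303, 6.58, 4.16 and 3.86 in M379, 3.89, 3.94 and 3.92 in SOX9_WT and 4.26, 6.30 and 6.67 in GFP. SOX9_WT was below M228, M303 and GFP without overlap, and M379 replicate 3 was below all SOX9_WT libraries. Replicate 1 had the most CHAC1 within each mutant and the least within GFP. Over SOX9_WT, M228 differed by 0.57 ± 0.26, M303 by 0.68 ± 0.26 and M379 by 0.31 ± 0.26 on the log2 scale, and none was called (edgeR adjusted p = 0.730, 0.534 and 0.979). The M379 value was 0.03 without M379 replicate 1.

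DDIT3 encodes CHOP, a transcription factor of prolonged stress (chromosome 12, 57516588 to 57521737, minus strand). Its libraries held 12.9, 14.8 and 15.1 CPM in M228, 15.1, 11.4 and 12.05 in M303, 10.9, 15.5 and 10.8 in M379, 10.7, 8.69 and 10.6 in SOX9_WT and 8.52, 24.6 and 13.1 in GFP. SOX9_WT lay below all mutant libraries but overlapped GFP, whose replicates 1 and 2 were the lowest and the highest of all 15. The log2 fold changes over SOX9_WT were 0.51 ± 0.27 in M228, 0.36 ± 0.27 in M303 and 0.31 ± 0.27 in M379, none called, and the M379 value was 0.12 without M379 replicate 2. MARS1 and MBD6 on the opposite strand overlap 31.6% of DDIT3 exon bases and a same-strand gene 8.03%, and reads over those bases could not be assigned to DDIT3 alone.

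**Figure D3:**
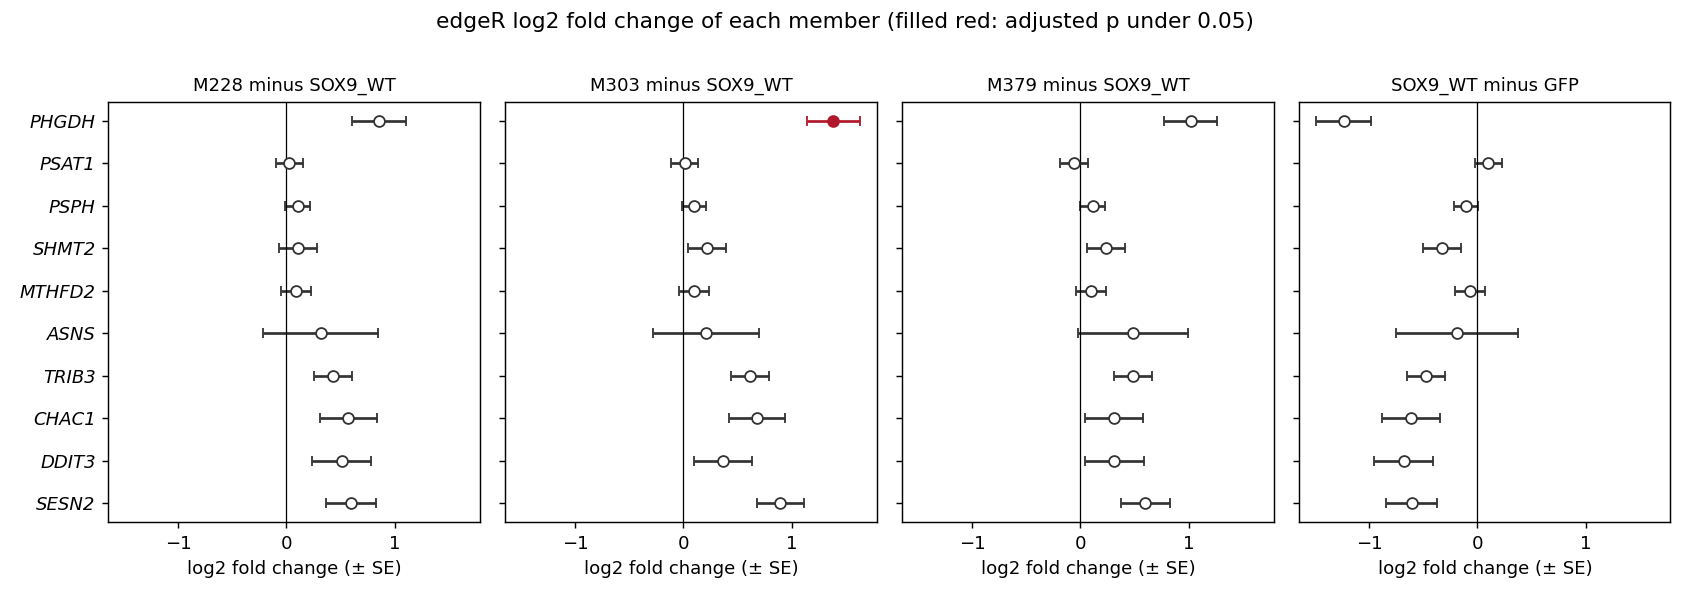
edgeR log2 fold change with its SE (horizontal axis) of each of the 10 genes (rows) in M228, M303 and M379 over SOX9_WT and in SOX9_WT over GFP. PHGDH in M303, at 1.38, is the 1 filled red point with an adjusted p under 0.05, and in the SOX9_WT panel 9 of 10 points lie below 0.

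Across the list, the median log2 fold change over SOX9_WT was 0.37 for M228, 0.29 for M303 and 0.31 for M379, while the median of all tested genes was 0.01, 0.01 and 0.00. The list was chosen with earlier results of these data known, so its shares and medians describe it and do not test it. In M228, 5 members had all mutant libraries above all SOX9_WT libraries (PHGDH, SESN2, TRIB3, CHAC1 and DDIT3), where 7.12% of all genes did. In M303 there were 6, these 5 and PSPH, beside 9.51% of all genes. In M379 there were 5, with PSPH in place of CHAC1, beside 9.75%. PHGDH, SESN2, TRIB3 and DDIT3 had all 9 mutant libraries above all 3 SOX9_WT libraries, which held for 2.04% of all genes. M303 replicate 1, the deepest library, was the highest of all 15 for PHGDH, SESN2, TRIB3 and CHAC1. The share of all genes that were highest in that library was not counted. Without M303 replicate 1 the M303 values were 0.60 for SESN2, 0.37 for TRIB3, 0.40 for CHAC1 and 0.23 for DDIT3.

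SOX9_WT was also compared with GFP, where its SOX9 RNA was higher by 0.84 on the log2 scale and not called. Induction of SOX9 and other differences between the lines cannot be told apart in this comparison. PHGDH stood at 4.14 ± 0.71 CPM in SOX9_WT, against 9.54 ± 2.96 CPM in GFP (SD, n = 3 each), a log2 fold change of -1.23 ± 0.25 that was not called (edgeR adjusted p = 0.106). The values were -0.61 ± 0.24 for SESN2, -0.61 ± 0.27 for CHAC1, -0.68 ± 0.27 for DDIT3, -0.47 ± 0.18 for TRIB3 and -0.32 ± 0.18 for SHMT2, also not called. PSAT1, at 0.10 ± 0.13, was the 1 member with a fitted value above 0, although ASNS, fitted at -0.19, had the higher mean in SOX9_WT (0.546 CPM, against 0.505 CPM in GFP) and a value of 1.36 without GFP replicate 3. No member was called by edgeR as reported, beside 0.0309% of all genes, and 5 had an unadjusted p under 0.05, beside 10.7%. DESeq2 called PHGDH and 0.415% of all genes. PHGDH was also called with limma voom (0.223% of all genes), with the replicate number as a block (0.489%) and without a filter (share not given). The libraries of SOX9_WT were all below those of GFP for 4 members (PHGDH, SESN2, TRIB3 and CHAC1), beside 5.15% of all genes. The list median was -0.40, against 0.01 for all genes.

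GFP replicate 2 weighed unequally on these values. Without it, the log2 fold change was -0.93 for PHGDH, -0.54 for SESN2, -0.58 for CHAC1 and -0.36 for TRIB3, but -0.19 for DDIT3 and -0.07 for SHMT2. GFP replicate 2 was the highest library for PSPH, SHMT2 and DDIT3 and the lowest for PSAT1, MTHFD2 and ASNS. The shares of all genes that were highest or lowest in that library were not counted.

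Against GFP, the mutants showed no called change in any member. PHGDH had a log2 fold change of -0.38 in M228, 0.15 in M303 and -0.22 in M379, and SESN2 of -0.01, 0.29 and -0.01. Without GFP replicate 2 the PHGDH values were -0.08, 0.45 and 0.08, and without M303 replicate 1 the M303 value was -0.16. edgeR called 0 members in each mutant, beside 0.241%, 0.118% and 0.0371% of all genes, with 0 members at an unadjusted p under 0.05, and DESeq2 called 0 too. The list medians were -0.03, 0.05 and -0.00. These comparisons share the 3 GFP libraries with each other. A p that misses the threshold does not show that mutant and GFP levels are equal.

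Between the mutants no member was called. Of all genes, 0.0124% were called in M303 over M228, 0.0433% in M379 over M228 and 0% in M379 over M303. PHGDH was the 1 member whose libraries separated, above M228 in both M303 and M379 (beside 5.14% and 5.94% of all genes), by 0.53 and 0.16 on the log2 scale. The M303 value was 0.22 without M303 replicate 1. It was also the 1 member with an unadjusted p under 0.05 in M303 over M228 (2.66% of all genes), while M379 over M228 and M379 over M303 had 0. DESeq2 called 0 members in all 3 comparisons. A test for any difference among the 5 groups called 0.681% of all genes and no member (PHGDH edgeR adjusted p = 0.0715), with 3 members at an unadjusted p under 0.05 (6.85% of all genes), and DESeq2 called 1 there and 2.22% of all genes. edgeR also called 1 without GFP replicate 2, where the share of all genes is not given.

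By group, SOX9_WT had the lowest mean for 8 of 10 members, and 25.9% of all tested genes had their lowest mean there. The other 2 members, PSAT1 and ASNS, were lowest in GFP. M303 had the highest mean for 5 members, among them PHGDH, SESN2, TRIB3 and CHAC1, where 12.8% of all genes had their highest mean. Without M303 replicate 1 this held for 1 member, MTHFD2, and for 17.5% of all genes.

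ATF4 itself, which is mainly regulated by translation, averaged 156 ± 8.56 CPM in M228, 172 ± 20.3 in M303, 168 ± 3.42 in M379, 140 ± 13.7 in SOX9_WT and 196 ± 65.0 in GFP. It was lowest on average in SOX9_WT, and neither M303 over SOX9_WT (0.29 ± 0.18) nor SOX9_WT over GFP (-0.48 ± 0.18, edgeR adjusted p = 0.437) was called. The GFP libraries held 159, 271 and 158 CPM, and without GFP replicate 2 the value in SOX9_WT over GFP was -0.17. SLC7A11, the cystine importer and an ATF4 target, had its highest mean in SOX9_WT, at 53.2 ± 13.2 CPM in SOX9_WT against 32.1 ± 13.9 CPM in GFP (log2 fold change 0.71 ± 0.24, edgeR adjusted p = 0.431). That value was 0.42 without GFP replicate 2, and 1.15 and a call without GFP replicate 3 (edgeR adjusted p = 0.0496). ATF3, a stress-induced transcription factor gene, averaged 15.3 ± 1.89 CPM in M228, 12.8 ± 2.12 in M303, 11.7 ± 1.32 in M379, 14.1 ± 6.94 in SOX9_WT and 12.5 ± 1.40 in GFP. Its SOX9_WT libraries held 22.1, 10.5 and 9.74 CPM, and the log2 fold change over GFP was 0.17, or -0.32 without SOX9_WT replicate 1.

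Of the 24 tested genes among 27 other ATF4 targets and regulators, none was called by edgeR in either direction in any comparison. Their median log2 fold change was 0.16 in M303 over SOX9_WT, with 18 above 0 and 2 at an unadjusted p under 0.05 (6.31% of all genes). In SOX9_WT over GFP it was -0.17, with 16 below 0 and 2 at an unadjusted p under 0.05 (10.7% of all genes). The median of all tested genes was 0.01 in both comparisons. DESeq2 called none. M228 over SOX9_WT gave these 24 genes a median of -0.01, with 10 above 0 and 14 below. Their median was 0.02 in M379 over SOX9_WT and 0.005 for the mean of the 3 mutants, each with 12 above 0 and 12 below. A higher median over SOX9_WT was thus seen in M303, and not in M228, M379 or the mean of the mutants. The 20 tRNA synthetase genes, many of them ATF4 targets, had a median of 0.16 in M303 over SOX9_WT, with 15 above 0 and 8 with all M303 libraries higher, beside 9.51% of all genes. In SOX9_WT over GFP their median was -0.18, with 17 below 0. edgeR and DESeq2 called 0 of the synthetases in both, with 2 and 4 at an unadjusted p under 0.05, beside 6.31% and 10.7% of all genes.

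Further genes of serine, glycine and folate metabolism had medians near that of all genes. For 17 tested of 23, the median was 0.03 in M303 over SOX9_WT and 0.03 in SOX9_WT over GFP, with 3 and 1 at an unadjusted p under 0.05, and edgeR and DESeq2 called 0 in both. Amino acid transporters (11 tested of 12) had medians of 0.10 and 0.06, and edgeR called 0, with 1 and 3 at an unadjusted p under 0.05. DESeq2 called 1 of them in each, the leucine-carrying transporter gene SLC43A1, beside 1.05% and 0.415% of all genes. Chaperone and unfolded protein response genes of the endoplasmic reticulum (16 tested) had medians of 0.06 and -0.17, and eIF2 kinases and subunits (16 tested) of 0.05 and -0.06. In both lists edgeR and DESeq2 called 0 genes in these comparisons, with 0 at an unadjusted p under 0.05 in M303 over SOX9_WT and 1 in each list in SOX9_WT over GFP.

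**Figure D4:**
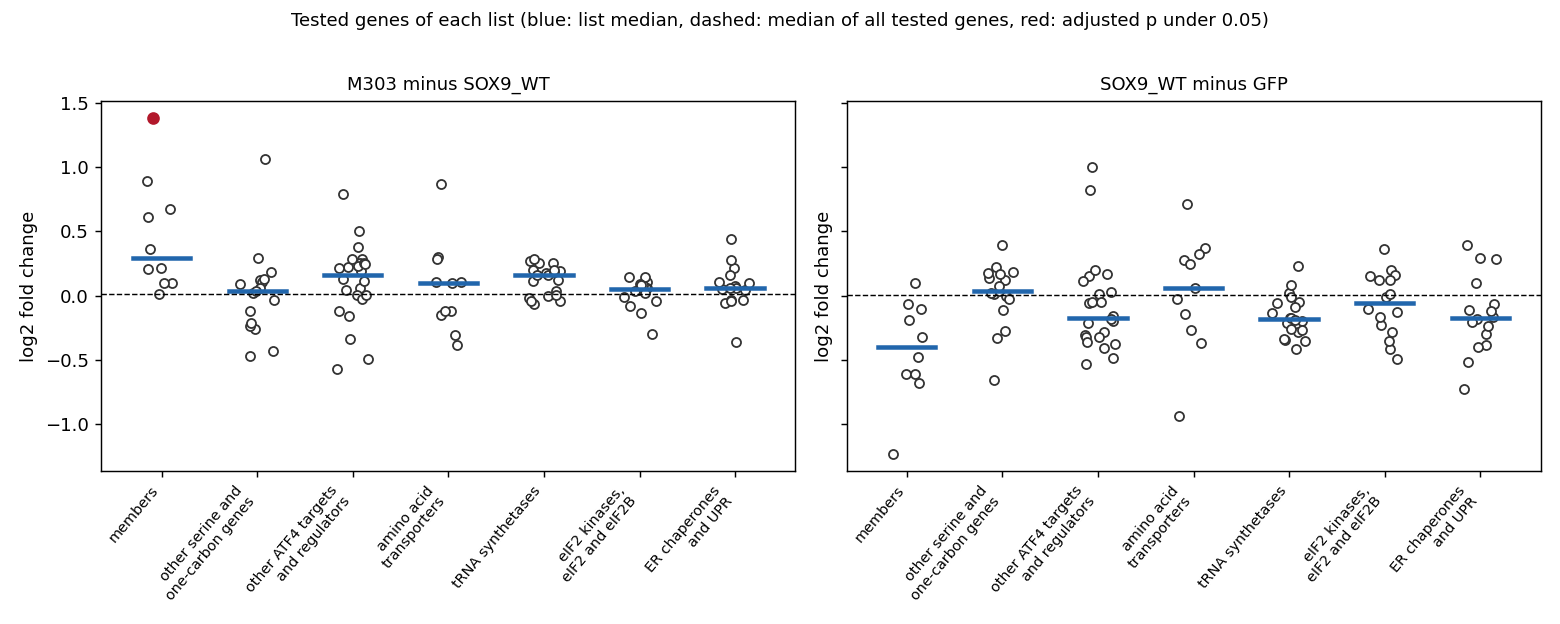
Log2 fold change (vertical axis) of every tested gene in the 10-gene list and in 6 related lists, for M303 over SOX9_WT (left) and SOX9_WT over GFP (right), with a blue bar at the list median and a dashed line at the median of all tested genes. The 10-gene list, chosen with earlier results of these data known, has the medians farthest from 0 in both panels, 0.29 and -0.40. PHGDH is the 1 red point with an adjusted p under 0.05.

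The genes most like PHGDH were found by the root mean square difference of log2 CPM, each gene centred on its mean over the 15 libraries, among 9824 named genes with a mean log2 CPM of at least 3. The 5 nearest were TRIB3 at 0.288, CD276 at 0.294, RCOR2 at 0.303, RPL13AP5 at 0.317 and TMEM132A at 0.323, where the median over all genes compared was 0.560. CD276 encodes an immune checkpoint protein of the B7 family, RCOR2 a transcriptional corepressor subunit and TMEM132A a membrane protein. RPL13AP5 is a ribosomal protein pseudogene, so its reads are uncertain. SESN2, which is below that level, was nearer still at 0.254. For CHAC1 28 genes were nearer to PHGDH, for DDIT3 78, for SHMT2 686 and for PSAT1 4658. A gene with no variation over the libraries would lie at 0.520 from PHGDH. ASNS at 0.749, PSAT1 at 0.553 and MTHFD2 at 0.540 were farther than that, and the other members were nearer.

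All 5 of these genes had their lowest mean in SOX9_WT, as their likeness to PHGDH would give. CD276 averaged 40.1 ± 0.617 CPM in M228, 44.1 ± 4.88 in M303, 40.3 ± 3.54 in M379, 27.4 ± 1.94 in SOX9_WT and 40.0 ± 4.01 in GFP. TMEM132A averaged 13.02 ± 2.67, 17.9 ± 0.770, 18.1 ± 1.06, 10.04 ± 1.24 and 16.2 ± 0.840 CPM in the same groups. In M303 over SOX9_WT, CD276 had a log2 fold change of 0.69 and TMEM132A of 0.83.

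**Figure D5:**
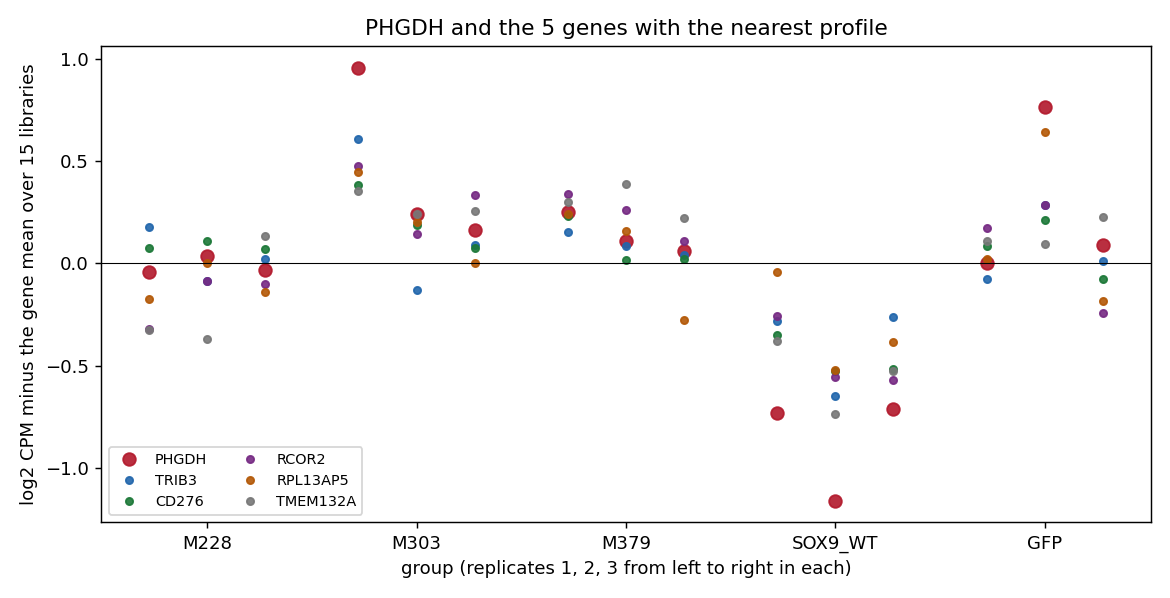
log2 CPM minus the gene mean over 15 libraries (vertical axis) of PHGDH (large red points) and the 5 genes with the nearest profile, with replicates 1 to 3 side by side in each group. The 3 SOX9_WT libraries hold the lowest values of PHGDH, and M303 replicate 1 holds its highest.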

How the data were processed

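Libraries were poly(A)-enriched and sequenced paired-end, per the labels' protocols. Reads were aligned to hg38 with STAR 2.7.0a, per the submitters' processing notes. The authors' raw count table came from featureCounts 2.0.1 with Ensembl 101 genes, per the file headers, and its command line has no strand, paired-end or multi-overlap option. The deposited normalized table holds signal values that match the counts after division by a size factor for each library; 3 columns that match no sample label were not used, so M379 had none. Trimming is not described in the sources used here.

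From the counts, 16160 of 60671 genes passed filterByExpr (42020 carry a symbol). They were scaled by TMM and fitted with edgeR 4.0.16 quasi-likelihood tests in R 4.3.3, with 1 mean per group over all 15 libraries (10 residual degrees of freedom). All tests were two-sided, with Benjamini-Hochberg adjustment over all tested genes within a comparison, and an adjusted p under 0.05 was a call. SE is the size of the log2 fold change divided by the square root of the F statistic. TPM used summed exon length. Alternatives were DESeq2 1.42.0, limma 3.58.1, RLE scaling, no filter, robust dispersion, the groups compared alone, the replicate block and left-out libraries. The steps were tested on simulated counts, for M303 over SOX9_WT alone. Of 100 genes changed by 1 on the log2 scale 63 were called, and of 100 changed by 2, 91 were called. Among the unchanged of 16160 genes, 5 were called. A true difference of 1 on the log2 scale can thus miss a call.

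Replicates of every group differed by more than sampling noise. Libraries with equal replicate numbers deviated together, with every correlation above 0.1, for M303 and M228 against SOX9_WT (lowest 0.102 and 0.176), for the mutants against GFP and between mutants, but not for M379 against SOX9_WT or SOX9_WT against GFP. That pairing was read from the data; no label states a shared day or batch.

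The members and lists were chosen with earlier results of these data known. By rule, the text names all members, up to 3 called genes of each further list with ATF4, ATF3 and SLC7A11, SOX9, the 5 genes nearest to PHGDH and cell type markers; ENSG00000284707, SLC43A1 and CTH were added after their values were seen.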

Additional observations from a re-analysis of the deposited data

How the results depend on the processing

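No result for PHGDH, PSPH, SESN2, TRIB3, CHAC1 or DDIT3 changed sign in any alternative for the mutants over SOX9_WT or for SOX9_WT over GFP, nor did SOX9 over GFP. PHGDH stayed called in 18 of 24 alternatives for M303 over SOX9_WT (1.08 to 1.52) and in 19 of 23 for the mean of the mutants (0.95 to 1.16); both calls were lost without replicate 1 of every group (0 members called; 1.15 and 1.04, edgeR adjusted p = 0.270 and 0.138), and the M303 call also with limma on the deposited values (1.32, adjusted p = 0.131). The count of members called became 1 without a filter, with DESeq2, with limma voom and with the replicate block for SOX9_WT over GFP and for any difference, 1 with limma voom and with the groups alone for M228 over SOX9_WT, and for M379 over SOX9_WT 1 without a filter, with DESeq2 and with the groups alone and 2 with limma voom. Beside these counts, limma voom called 0.223% of all genes in SOX9_WT over GFP and 1.18% for any difference. In M228 and M379 over SOX9_WT it called 2.9% and 4.38%. The replicate block called 0.489% in SOX9_WT over GFP and 2.05% for any difference, where DESeq2 called 0.415% and 2.22%. DESeq2 called 0.439% in M379 over SOX9_WT. For M303 over SOX9_WT the count of members was 2 with DESeq2 and with the replicate block, beside 1.05% and 1.6% of all genes. It was 3 with limma voom and 0 with limma on the deposited values. For the mean of the mutants it was 4 with limma voom, which called 7.44% of all genes in M303 over SOX9_WT and 10.8% in that mean. Leaving out libraries gave 0 to 1 members in M303, in M379, in the mean of the mutants and for any difference; the 1 in M379 and for any difference came without GFP replicate 2. SOX9 in SOX9_WT over GFP became a call without a filter (0.85), with DESeq2 (0.83), with the replicate block (0.86) and without GFP replicate 3 (1.10), while leaving out single libraries gave 0.72 to 1.10. The cause of these shifts was not tested. The replicate block changed no other call of a member. All-gene counts moved widely, from 62 to between 7 and 1202 in M303 over SOX9_WT, and from 5 to between 0 and 180 in SOX9_WT over GFP. They moved from 92 to between 21 and 468 in M228 over SOX9_WT and from 20 to between 1 and 707 in M379 over SOX9_WT. For any difference they moved from 110 to between 16 and 596. Shares of all genes are not given without a filter, with the groups alone or without GFP replicate 2. The counts of members in those settings are therefore not read as a result. Of 110 pairs of member and comparison, 54 changed sign in at least 1 alternative, all with a size of at most 0.37. Limma on the deposited values was not run for comparisons with M379, and the groups alone could not be used for any difference. Low read counts limit ASNS, with 1 to 25 reads per library, and PHGDH in GFP replicate 1, with 25 reads.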

Other observations

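Among genes outside the list, SLC43A1, an amino acid transporter gene chosen here after its values were seen, also had its lowest mean in SOX9_WT. It averaged 10.4 ± 1.85 CPM in M228, 15.7 ± 2.18 in M303, 12.2 ± 2.09 in M379, 8.64 ± 2.21 in SOX9_WT and 16.2 ± 2.42 in GFP (SD, n = 3 each). The log2 fold change was 0.87 ± 0.21 in M303 over SOX9_WT and -0.93 ± 0.21 in SOX9_WT over GFP, not called by edgeR (adjusted p = 0.0928 and 0.149) and called by DESeq2 in both. CTH, whose enzyme makes cysteine from cystathionine, averaged 49.2 ± 7.21 CPM in M228, 34.7 ± 4.10 in SOX9_WT and 34.2 ± 3.95 in GFP. Its log2 fold change in M228 over SOX9_WT was 0.50 ± 0.14 (edgeR adjusted p = 0.159), and DESeq2 called it.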
